A study of Bos taurus with 12 samples.

Results

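Granulosa cells and theca cells of small bovine follicles were compared on 4 of the 12 arrays of the series. The members were chosen by sample title: 2 arrays of granulosa cells and 2 arrays of theca cells, all from follicles of up to 5 mm, set against each other over all probe sets other than hybridisation and labelling controls. The other 8 arrays carried the same cell layers of medium follicles (over 5 and up to 10 mm) and large follicles (over 10 mm), with 4 arrays for each size. All samples came from young cycling heifers that were not pregnant, and from untreated ovaries in the follicular stage, collected shortly after death and kept on ice. Each array measured total RNA from a pool of 20 to 40 follicles of 1 size, per the extract protocol, while the design text speaks of as many ovaries, from 6 to 10 animals. Pooling hides the spread between animals, and the labels do not say whether the granulosa and theca pools of a size shared animals.

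Granulosa cells are the epithelial cells that line the follicle and surround the oocyte. They have no blood vessels of their own, respond to follicle-stimulating hormone and turn androgens into oestrogens. Theca cells lie outside the basement membrane in a vascular connective tissue, respond to luteinising hormone and make the androgens. The comparison asks how far the 2 layers differ when the antral follicle is still small.

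Values are the deposited array signals, whose trimmed mean was nearly equal on all arrays. A difference is the mean log2(signal + 16) of the 2 granulosa arrays minus that of the 2 theca arrays, with the standard error of a limma model fitted over all 12 arrays, and n = 2 arrays per group throughout. Positive differences are thus higher in granulosa cells and negative ones higher in theca cells. Calls were made over the 17236 tested probe sets, at an adjusted p (Benjamini-Hochberg) under 0.05, and each gene of a list stands for its brightest probe set. Folds are given on the same scale and left out where both arrays of a layer lie below the filter level, a signal of 22.5, since the added 16 then sets them. Paired signals are given for replicate 1 and then replicate 2. For a gene list, the 4 numbers in brackets after a count, and after a median that moves by over 1.5 times or turns sign, give its value when granulosa replicate 1, granulosa replicate 2, theca replicate 1 or theca replicate 2 was left out, in that order. A layer then has 1 array, which is assumed to vary like the other groups. Named genes whose call was lost in such a fit are given at the end of a paragraph, with the highest adjusted p among those fits.

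The defining markers followed the titles. The lists were chosen with earlier results of these data known, so this is no independent check of the labels. Summed over the 11 theca markers with a probe set, the signal was 35243 and 23638 in theca against 4088 and 3406 in granulosa, while the description field of the labels names theca for every sample. The 17 granulosa markers summed to 29644 and 37330 in granulosa and to 10527 and 13098 in theca, so transcripts of the granulosa list were present on the theca arrays as well. Signals that measure a whole cell layer cannot tell fewer cells of a type from less RNA per cell. Theca replicate 1 stood apart in RNA quality, with a ratio of the 3' over the 5' GAPDH control of 8.36, against 1.05 to 1.30 on the other 3 small-follicle arrays. The same ratio of the actin control ran with the layer, at 11.2 and 7.25 in theca and 2.39 and 3.97 in granulosa. Its rank correlation with theca replicate 2 was 0.867, against 0.926 between the granulosa replicates.

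In small follicles 1575 of 17236 probe sets (9.14%) differed between the layers, 700 of them (4.06%) higher in granulosa and 875 (5.08%) higher in theca. Differences towards theca were the steeper ones: 127 of the 875 reached 3 on the log2 scale and 32 reached 4, against 30 and 4 of the 700. The arrays of the 2 layers did not overlap for any of the 1575, as was the case for 49.8% of all tested probe sets. Named by 1 symbol were 1000 of the called probe sets, which stood for 407 genes higher in granulosa and 499 higher in theca. The median difference over all tested probe sets was 0.04. The shares of 4.06% and 5.08% are the background for the list counts that follow. Of 17 tested granulosa markers 9 (5, 4, 4 and 8) were called higher in granulosa with a median of 1.91, and of 10 tested theca markers 6 (7, 6, 6 and 6) higher in theca with a median of -3.16.

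**Figure D1:**
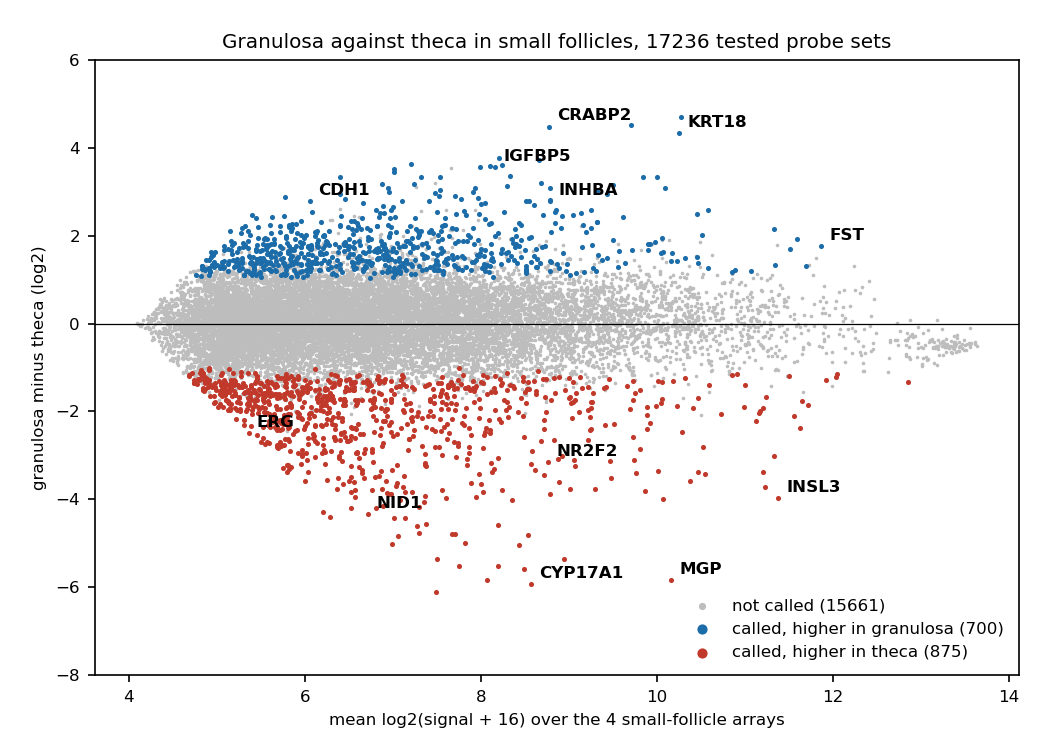
Each point is 1 of 17236 tested probe sets, with the mean log2(signal + 16) over the 4 small-follicle arrays on the x axis and the granulosa minus theca difference (log2) on the y axis; blue points (700) were called higher in granulosa, red points (875) higher in theca and grey points were not called. The red cloud reaches further from 0 than the blue cloud, with CYP17A1 at -5.94 and KRT18 at 4.33.

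Many calls depended on single arrays. Of the 700, the call held for 207 without granulosa replicate 1, 127 without granulosa replicate 2, 126 without theca replicate 1 and 553 without theca replicate 2. Of the 875 it held for 434, 358, 378 and 686 in the same order. In all 4 fits 64 probe sets were called higher in granulosa and 273 higher in theca. Among the 700, 74.4% had a lower signal in theca replicate 1 than in theca replicate 2 (median -0.43 on the log2 scale), against 51.0% of all tested probe sets (median -0.02). Among the 875 the share was 36.1% (median 0.27). The part of the RNA quality of the theca arrays in these differences was not tested.

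**Figure D2:**
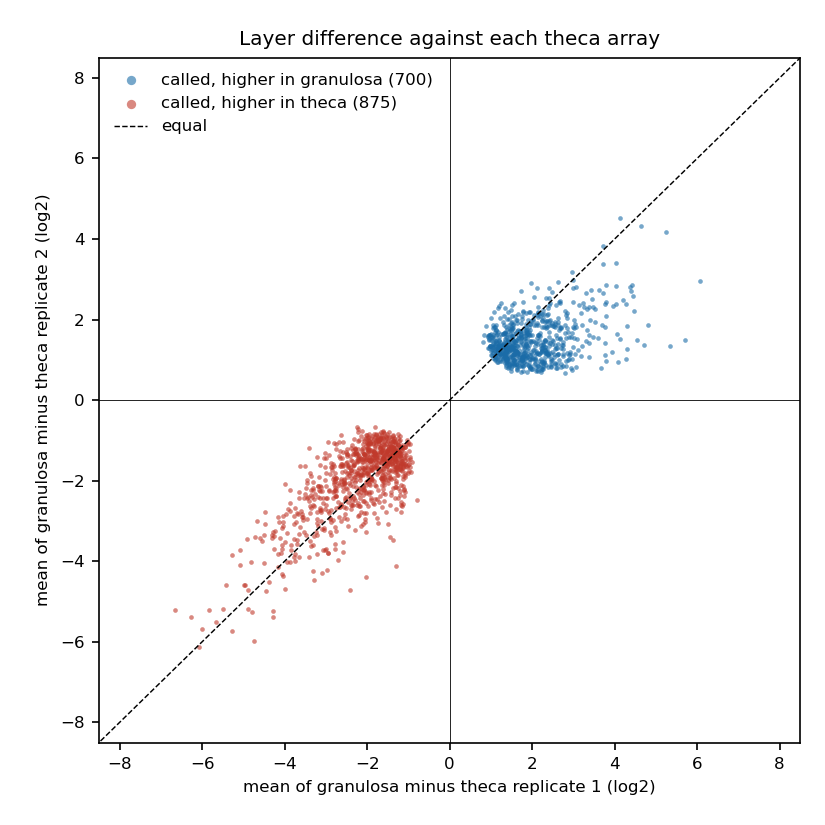
Each point is 1 called probe set, with the mean of the granulosa arrays minus theca replicate 1 (log2) on the x axis and the same mean minus theca replicate 2 on the y axis; the dashed line marks equal values. The blue points (700, higher in granulosa) lie mostly to the right of the line, where theca replicate 1 is the lower theca array.

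The largest difference between the layers among named genes was in the androgen pathway. CYP17A1, the enzyme that turns progestogens into androgens, gave signals of 26.5 and 39.2 in granulosa and 4863 and 1786 in theca, a difference of -5.94 ± 0.57 (61.2-fold, adjusted p = 4.28e-05). FDX1, the ferredoxin that passes electrons to the mitochondrial steroid enzymes, gave 598 and 613 in granulosa and 2426 and 2143 in theca (-1.89 ± 0.31, adjusted p = 0.00225). Both calls held without any 1 of the 4 arrays. Other enzymes and carriers of early steroid synthesis gave no call. CYP11A1, which starts steroid synthesis by cleaving the cholesterol side chain, stood at 1560 and 1916 in granulosa and 2304 and 1391 in theca (-0.05 ± 0.39, adjusted p = 0.953). STAR, which carries cholesterol into mitochondria, stood at 1775 and 1226 in granulosa and 3066 and 730 in theca (-0.02 ± 0.67, adjusted p = 0.987). For both genes the lower and the higher theca array bracketed the granulosa arrays. HSD3B1, which makes progesterone from pregnenolone, gave 1561 and 1505 in granulosa and 1082 and 622 in theca (0.89 ± 0.37, adjusted p = 0.148).

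Enzymes of oestrogen synthesis were brighter on the granulosa arrays without passing the test. HSD17B1, which reduces oestrone to oestradiol, gave 1302 and 3592 in granulosa and 593 and 540 in theca (1.91 ± 0.66, adjusted p = 0.0858). CYP19A1, the aromatase, gave 113 and 126 in granulosa and 21.9 and 52.8 in theca (1.41 ± 0.63, adjusted p = 0.177), and its other tested probe set gave 0.08. For the 2 genes the layers did not overlap, as for 49.8% of all tested probe sets, and the granulosa replicates of HSD17B1 and the theca replicates of CYP19A1 lay far apart. TSPO, a mitochondrial protein linked to cholesterol import, gave 1.33 ± 0.49, and POR, the electron donor of the microsomal cytochromes, 1.07 ± 0.41, neither of them called. Among the 19 tested genes of steroid synthesis 1 (1, 1, 1 and 1) was called higher in granulosa and 3 (2, 2, 2 and 3) higher in theca, with a median of -0.05 (-0.01, -0.13, 0.17 and -0.25). Of all tested probe sets 4.06% were called higher in granulosa and 5.08% higher in theca. The steroid gene on the granulosa side was NR5A2, an orphan nuclear receptor of granulosa cells, at 628 and 488 in granulosa and 33.4 and 102 in theca (2.90 ± 0.45, adjusted p = 0.0015). The nuclear receptor NR0B1, a repressor of steroid genes, was higher in theca (-1.26 ± 0.36, adjusted p = 0.0444). NR0B1 lost its call with any 1 array but theca replicate 2 left out (adjusted p up to 0.201).

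The gonadotropin receptors, which give each layer its pituitary hormone, did not pass the test. FSHR, the receptor of follicle-stimulating hormone, stood at 149 and 160 in granulosa and 5 and 63.3 in theca (2.06 ± 0.64, adjusted p = 0.0574), and was called when theca replicate 2 was left out (adjusted p = 0.00988). LHCGR, the receptor of luteinising hormone, gave 3.1 and 9.8 in granulosa and 27.5 and 37.4 in theca (-1.12 ± 0.36, adjusted p = 0.0648), signals that are dim in both layers. INSL3, the peptide hormone of theca cells, gave 456 and 928 in granulosa and 12720 and 8706 in theca (-3.98 ± 0.47, 15.8-fold, adjusted p = 0.000212), so the transcript was also measured in the granulosa pools. ESR2, the oestrogen receptor of granulosa cells, gave 66.2 and 115 in granulosa and 24.7 and 28.2 in theca (1.29 ± 0.34, adjusted p = 0.0317). NR3C1, the glucocorticoid receptor, was higher in theca (-1.32 ± 0.33, adjusted p = 0.0244), but its other tested probe set gave 0.56. ADCY2, an adenylate cyclase, gave 4.5 and 9.3 in granulosa and 113 and 43.7 in theca (-1.94 ± 0.38, adjusted p = 0.007). ESR2 lost its call with granulosa replicate 2 or theca replicate 1 left out (adjusted p up to 0.243). NR3C1 lost its call with any 1 array but theca replicate 2 left out (adjusted p up to 0.173). ADCY2 lost its call with granulosa replicate 1 or theca replicate 1 left out (adjusted p up to 0.0688).

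**Figure D3:**
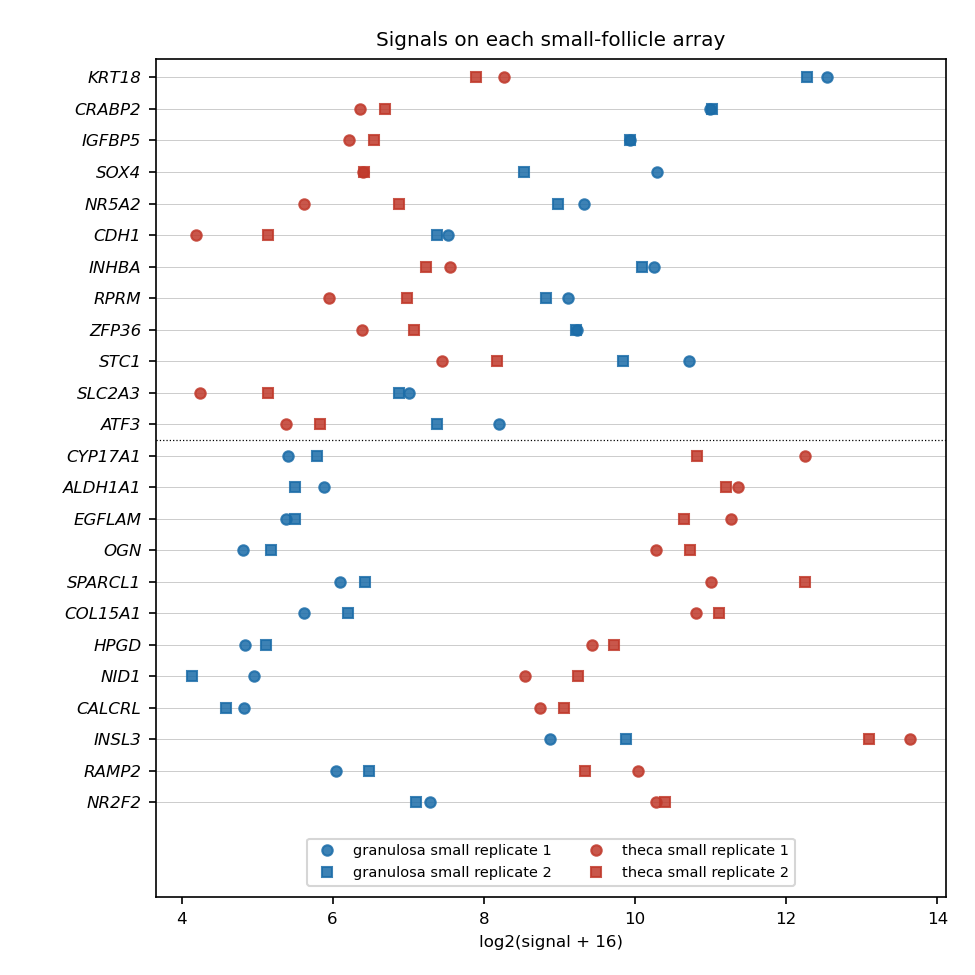
Each row is a gene and each point 1 array, with log2(signal + 16) on the x axis; blue points are granulosa, red points theca, circles replicate 1 and squares replicate 2. The 12 upper genes were called higher in granulosa and the 12 lower genes higher in theca; since all were chosen as called, the distance between the colours describes the genes and is no test.

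A ligand and its receptor lay on opposite sides in the adrenomedullin system. Adrenomedullin is a small peptide that widens blood vessels, and CALCRL with its partner RAMP2 forms its receptor, which is known from endothelial cells. ADM, the ligand, gave 6800 and 5224 in granulosa and 996 and 2462 in theca (1.92 ± 0.50, adjusted p = 0.0294). CALCRL gave 12.5 and 8 in granulosa and 411 and 520 in theca, a difference of -4.19 ± 0.43 (adjusted p = 5.53e-05). RAMP2 gave 49.7 and 73.3 in granulosa and 1032 and 633 in theca (-3.43 ± 0.44, 10.8-fold, adjusted p = 0.000318). The granulosa arrays lay near the dim end for CALCRL, below the filter level of 22.5, and both receptor calls held without any 1 array. Over all tested probe sets the shares called, to set beside the list counts that follow, were 4.06% and 5.08%. Among the 22 tested hormone receptors and cAMP genes 1 (1, 0, 1 and 3) was called higher in granulosa and 4 (2, 3, 2 and 5) higher in theca, with a median of -0.21 (-0.19, -0.33, -0.38 and -0.15). ADM lost its call with any 1 array but theca replicate 2 left out (adjusted p up to 0.204).

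In the inhibin, activin and BMP system the activin subunit, its binding protein and BMP2 were higher in granulosa. INHBA, the subunit that inhibin A and activin A share, gave 1205 and 1078 in granulosa and 171 and 135 in theca (2.78 ± 0.50, 6.87-fold, adjusted p = 0.0038). FST, which binds and blocks activin, gave 5919 and 7964 in granulosa and 1292 and 3097 in theca (1.77 ± 0.47, adjusted p = 0.0313). BMP2, a bone morphogenetic protein, gave 91.6 and 132 in granulosa and 8.1 and 12.7 in theca (2.26 ± 0.62, adjusted p = 0.0352). The granulosa arrays of INHBA were close to each other and far above theca, whereas theca replicate 2 of FST came within a factor of 1.91 of granulosa replicate 1. INHA, the inhibin alpha subunit, was bright in every array at 3917 and 8589 in granulosa and 3972 and 2930 in theca (0.76 ± 0.41, adjusted p = 0.263). AMH, the anti-Müllerian hormone of growing follicles, gave 428 and 861 in granulosa and 130 and 172 in theca (1.91 ± 0.57, adjusted p = 0.0522). Neither of the 2 was called. FST lost its call with any 1 array but theca replicate 2 left out (adjusted p up to 0.213). BMP2 lost its call with any 1 of the 4 arrays left out (adjusted p up to 0.209).

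The called TGF-beta genes lay on the theca side. The ligand TGFB2 gave 16.4 and 7.3 in granulosa and 116 and 82.7 in theca (-2.05 ± 0.35, adjusted p = 0.00284). ENG, endoglin, a co-receptor of endothelial cells, gave 40.6 and 37.9 in granulosa and 358 and 249 in theca (-2.51 ± 0.45, adjusted p = 0.0039). ID1, an inhibitor of basic helix-loop-helix factors that BMP signals induce, gave 207 and 288 in granulosa and 1226 and 1567 in theca (-2.43 ± 0.39, 5.38-fold, adjusted p = 0.00195). The calls of these 3 genes held without any 1 array. The receptor TGFBR2 gave -1.91 ± 0.39, adjusted p = 0.00823, while its other tested probe set gave -0.09. In all, 3 (1, 1, 1 and 5) of 31 tested genes of the list were called higher in granulosa and 5 (4, 4, 3 and 6) higher in theca, with a median of 0.32 (0.07, 0.45, 0.10 and 0.45). TGFBR2 lost its call with granulosa replicate 2 or theca replicate 1 left out (adjusted p up to 0.076).

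Other signalling systems gave few calls by count. The shares called over all tested probe sets were 4.06% higher in granulosa and 5.08% higher in theca. IHH, Indian hedgehog, a ligand of granulosa cells that acts on theca, gave 236 and 705 in granulosa and 9.8 and 43.3 in theca (3.44 ± 0.68, 10.9-fold, adjusted p = 0.00723). It was the called member among 3 tested hedgehog genes, and the hedgehog receptor PTCH1 was too dim to be tested, at 8.2 and 17.5 in granulosa and 8.2 and 2.7 in theca. FRZB, a secreted WNT antagonist, gave 11.4 and 8 in granulosa and 559 and 201 in theca (-3.78 ± 0.41, adjusted p = 9.55e-05), and its call held without any 1 array. The WNT receptor FZD1 was also higher in theca (-1.89 ± 0.40, adjusted p = 0.0104). The related antagonist SFRP2 had the opposite order at 341 and 807 in granulosa and 14.8 and 95.7 in theca, but its difference of 3.21 ± 1.27 did not pass the test (adjusted p = 0.127). Of 19 tested WNT genes 2 (1, 1, 2 and 2) were called higher in theca, and the others gave no call, with a median of -0.55 (-0.33, -0.34, -0.46 and -0.40). IHH lost its call with granulosa replicate 2 or theca replicate 1 left out (adjusted p up to 0.107). FZD1 lost its call with granulosa replicate 1 or granulosa replicate 2 left out (adjusted p up to 0.073).

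EGFR, the epidermal growth factor receptor, was higher in granulosa, with 72.3 and 69.8 against 1.3 and 21.7 in theca (1.77 ± 0.40, adjusted p = 0.0149). NTRK2, a neurotrophin receptor, was higher in theca, with 152 and 106 against 8 and 17.9 in granulosa (-2.32 ± 0.41, adjusted p = 0.00354). These were the called members, 1 in each direction, among 19 tested genes of the KIT, FGF, EGF and PDGF systems. That is near the shares over all tested probe sets, 4.06% towards granulosa and 5.08% towards theca. The median of the list was -0.20 (-0.43, 0.01, -0.39 and -0.35). Of 8 tested NOTCH genes, limma called 0, with an unadjusted p under 0.05 for 2, and their median was -0.49 (-0.33, -0.78, -0.43 and -0.60). VEGFA, the ligand that draws blood vessels, was higher in granulosa, with 346 and 465 against 65.3 and 80.6 in theca (2.23 ± 0.58, adjusted p = 0.0293), with 0.79 for its other probe set. The angiopoietin receptor TEK was higher in theca, with 143 and 201 against 15.9 and 22.8 in granulosa (-2.40 ± 0.32, 5.28-fold, adjusted p = 0.00049), and so was its partner TIE1 (-1.75 ± 0.47, adjusted p = 0.0328). PGF, a relative of VEGFA, gave 1.60 ± 0.58 and FLT1, a VEGF receptor, -1.12 ± 0.46, neither of them called. EGFR and TIE1 lost their calls with any 1 array but theca replicate 2 left out (adjusted p up to 0.123 and 0.176). VEGFA lost its call with any 1 of the 4 arrays left out (adjusted p up to 0.183).

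The IGF system divided between the layers, with 4 (2, 3, 2 and 3) of 12 tested genes called higher in granulosa and 4 (4, 4, 4 and 4) higher in theca, and a median of 0.94 (0.98, 0.88, 1.33 and 0.46). IGF2, the growth factor ligand, was higher in theca, with 4707 and 2567 against 197 and 273 in granulosa (-3.82 ± 0.37, 14.1-fold, adjusted p = 4.28e-05). The binding proteins, which hold IGFs in the follicle and limit their action, went different ways. IGFBP4 gave 35.3 and 113 in granulosa and 1965 and 856 in theca (-4.01 ± 0.47, 16.1-fold, adjusted p = 0.00017). IGFBP6, which prefers IGF2, gave 144 and 259 in granulosa and 3726 and 1541 in theca (-3.53 ± 0.43, 11.5-fold, adjusted p = 0.000245). IGFBP3 was also higher in theca, with 1350 and 945 against 127 and 93 in granulosa (-3.20 ± 0.39, adjusted p = 0.00026). By contrast IGFBP5 was higher in granulosa, with 963 and 964 against 58.4 and 77.4 in theca (3.55 ± 0.46, 11.7-fold, adjusted p = 0.000377). STC1, stanniocalcin, an inhibitor of the protease that cleaves IGFBP4, was higher in granulosa, with 1672 and 899 against 159 and 273 in theca (2.47 ± 0.42, adjusted p = 0.00271). These 6 genes were called without any 1 of the arrays, and their layers lay far apart on every array.

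On the receptor side INSR, the insulin receptor, was higher in granulosa, with 558 and 361 against 91.1 and 107 in theca (2.02 ± 0.43, adjusted p = 0.0106). The other probe sets of INSR gave 0.19 to 2.14. IGF1R, the IGF receptor, had the same order at 80.3 and 157 in granulosa and 26 and 25.2 in theca without a call (1.63 ± 0.52, adjusted p = 0.0648). IGFBP2 was higher in granulosa (1.96 ± 0.57, adjusted p = 0.0477). IGF1 itself was dim at 47.8 and 77 in granulosa and 32.4 and 5.7 in theca (1.25 ± 0.57, adjusted p = 0.186). INSR lost its call with granulosa replicate 1 or theca replicate 1 left out (adjusted p up to 0.0837). IGFBP2 lost its call with any 1 of the 4 arrays left out (adjusted p up to 0.223).

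Retinoid genes were among the steepest in either direction. CRABP2, which carries retinoic acid to its receptors, gave 2022 and 2067 in granulosa and 66.4 and 87.3 in theca (4.48 ± 0.60, 22.3-fold, adjusted p = 0.000465). STRA6, the cell-surface receptor for retinol-binding protein, gave 1944 and 5108 in granulosa and 218 and 587 in theca (3.08 ± 0.59, 8.44-fold, adjusted p = 0.00595). ALDH1A1, which makes retinoic acid from retinal, lay on the other side at 42.9 and 29.4 in granulosa and 2613 and 2342 in theca (-5.59 ± 0.51, 48.1-fold, adjusted p = 3.67e-05). RARRES1, a gene that retinoic acid induces, gave 46.3 and 60.9 in granulosa and 1359 and 684 in theca (-3.83 ± 0.53, 14.2-fold, adjusted p = 0.000601). The enzyme ALDH1A1 and the carrier CRABP2 thus lay in different layers, each with replicates close together. CRABP1, a relative of CRABP2, lay on the side of ALDH1A1. The median over the list was 0.02 (0.22, -0.14, -0.09 and -0.09). Of 14 tested retinoid genes 2 (2, 1, 1 and 2) were called higher in granulosa and 3 (2, 2, 2 and 4) higher in theca, among them CRABP1 (-1.49 ± 0.35, adjusted p = 0.0185). STRA6 lost its call with granulosa replicate 2 or theca replicate 1 left out (adjusted p up to 0.0938). CRABP1 lost its call with any 1 array but theca replicate 2 left out (adjusted p up to 0.138).

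Called prostaglandin genes were mostly on the theca side. HPGD, which breaks prostaglandins down, gave 12.6 and 18.6 in granulosa and 673 and 826 in theca (-4.60 ± 0.43, adjusted p = 3.67e-05), and its call held without any 1 array. PTGIS, the prostacyclin synthase, gave 26.7 and 61.5 in granulosa and 232 and 170 in theca (-1.90 ± 0.55, adjusted p = 0.0467). SLCO2A1, a prostaglandin transporter, gave 2.2 and 25.7 in granulosa and 69.5 and 61.5 in theca (-1.56 ± 0.41, adjusted p = 0.0293). PTGES, a prostaglandin E synthase, was higher in granulosa, with 172 and 202 against 65.3 and 31.2 in theca (1.71 ± 0.41, adjusted p = 0.0194). PTGS2, the inducible cyclooxygenase, was bright on granulosa replicate 1 alone at 85.5 and 17.7 in granulosa and 1.6 and 5.4 in theca (1.59 ± 0.49, adjusted p = 0.0557). The counts were 1 (0, 1, 1 and 0) higher in granulosa and 3 (1, 2, 1 and 2) higher in theca among 10 tested genes, with a median of -0.83. PTGIS lost its call with any 1 of the 4 arrays left out (adjusted p up to 0.212). SLCO2A1 lost its call with granulosa replicate 1 or theca replicate 1 left out (adjusted p up to 0.192). PTGES lost its call with any 1 array but theca replicate 1 left out (adjusted p up to 0.133).

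Gonadal transcription factors separated the layers in either direction, with 4 (3, 2, 2 and 3) of 21 tested genes called towards granulosa, 4 (4, 2, 3 and 4) towards theca and a median of 0.42 (0.28, 0.58, 0.79 and 0.20). SOX4, an SRY-related factor, gave 1235 and 354 in granulosa and 68.8 and 69.5 in theca (3.0 ± 0.47, 7.99-fold, adjusted p = 0.0015), with the granulosa replicates themselves 3.49 times apart. FOXL2, the forkhead factor that maintains granulosa identity, gave 54 and 91.1 in granulosa and 3.7 and 1.4 in theca (2.23 ± 0.60, adjusted p = 0.0336). NR2F2, also called COUP-TFII, a marker of theca and stroma, gave 140 and 121 in granulosa and 1229 and 1330 in theca (-3.15 ± 0.30, 8.86-fold, adjusted p = 4.28e-05). TCF21, a factor of mesenchymal cells, gave 68.4 and 84.3 in granulosa and 532 and 1242 in theca (-3.17 ± 0.37, 9.02-fold, adjusted p = 0.000189). The replicates of NR2F2 lay close together in both layers, and the calls of NR2F2, TCF21, NR5A2 and SOX4 held without any 1 array. MEIS2, a homeobox factor, was higher in theca (-1.40 ± 0.29, adjusted p = 0.01). FOXL2 lost its call with any 1 of the 4 arrays left out (adjusted p up to 0.221). MEIS2 lost its call with granulosa replicate 2 left out (adjusted p 0.088).

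Called epithelial genes lay mostly in the granulosa layer, with 6 (2, 3, 3 and 4) of 20 tested junction and keratin genes called higher in granulosa. The median of the list was 0.09 (0.05, 0.27, -0.06 and 0.43), and 7 of the 20 estimates lay below 0. KRT18, a keratin of simple epithelia, gave 5964 and 4945 in granulosa and 293 and 221 in theca (4.33 ± 0.40, 20.1-fold, adjusted p = 3.67e-05). CDH1, E-cadherin, gave 169 and 151 in granulosa and 2.2 and 19.3 in theca (2.79 ± 0.43, adjusted p = 0.00134), and 1.04 for its other probe set. Its relative CDH2, N-cadherin, the main cadherin of granulosa cells, gave 2187 and 1478 in granulosa and 202 and 502 in theca (2.43 ± 0.64, adjusted p = 0.0311). The tight junction protein CLDN1 gave 636 and 535 in granulosa and 49.1 and 221 in theca (2.27 ± 0.57, adjusted p = 0.0249). KRT8, the partner of KRT18, gave 108 and 51.8 in granulosa and 15.9 and 1.9 in theca (1.94 ± 0.42, adjusted p = 0.0127). KRT18 and CDH1 were called without any 1 array. Called higher in theca were 2 (1, 0, 0 and 2) genes of the list, CLDN11 (-2.63 ± 0.64, adjusted p = 0.0216, other probe set 0.24) and KRT7 (-1.53 ± 0.37, adjusted p = 0.0208). CDH2, CLDN1 and KRT7 lost their calls with any 1 array but theca replicate 2 left out (adjusted p up to 0.199, 0.196 and 0.149). KRT8 lost its call with granulosa replicate 1 or theca replicate 2 left out (adjusted p up to 0.1). CLDN11 lost its call with granulosa replicate 2 or theca replicate 1 left out (adjusted p up to 0.196).

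Collagens were called towards theca alone. Of 17 tested collagens 8 (5, 6, 5 and 9) were called higher in theca and the rest gave no call, with a median of -1.51. COL15A1, a collagen of basement membrane zones, gave 33.2 and 57.6 in granulosa and 1771 and 2188 in theca (-5.04 ± 0.46, 33-fold, adjusted p = 3.67e-05). COL1A1, the fibrillar collagen of connective tissue, gave 159 and 394 in granulosa and 4793 and 3800 in theca (-4.0 ± 0.51, 16-fold, adjusted p = 0.000344). COL3A1 gave 774 and 1030 in granulosa and 6140 and 8654 in theca (-3.01 ± 0.53, adjusted p = 0.00348). COL6A1 gave -2.58 ± 0.39, adjusted p = 0.00134, but -0.39 to -0.27 in its other probe sets. All 4 were called without any 1 array.

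The follicle's basement membrane separates the layers. Of 14 tested genes of basement membranes and their integrins 5 were called higher in theca and 1 higher in granulosa. Both counts changed when 1 array was left out. The median was -0.49 (-0.24, -0.54, -0.36 and -0.72). Whether the transcripts belong to the membrane of the follicle or of vessels was not tested. EGFLAM, pikachurin, a laminin-domain protein, gave 25.7 and 29.2 in granulosa and 2446 and 1586 in theca (-5.52 ± 0.32, 45.7-fold, adjusted p = 9.17e-07), the smallest adjusted p among the genes named. NID1, nidogen, which links laminins to collagen, gave 15.2 and 1.6 in granulosa and 358 and 590 in theca (-4.34 ± 0.40, adjusted p = 3.67e-05). LAMA4, a laminin chain of blood vessels, gave 10.4 and 2 in granulosa and 174 and 134 in theca (-2.95 ± 0.41, adjusted p = 0.000619). For all 3 genes the granulosa arrays stayed at or near the dim end, and the calls held without any 1 array. The exception was ITGA2, an integrin that binds collagen, higher in granulosa, with 222 and 82.5 against 20.6 and 40.5 in theca (1.75 ± 0.47, adjusted p = 0.0327), with 0.55 for its other probe set. ITGA2 lost its call with granulosa replicate 1 or theca replicate 1 left out (adjusted p up to 0.208).

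Proteoglycans gave 9 (6, 6, 6 and 6) calls higher in theca and 1 (1, 0, 0 and 2) higher in granulosa among 22 tested genes, with a median of -0.57 (-0.73, -0.86, -0.49 and -0.88). The shares over all tested probe sets were 5.08% higher in theca and 4.06% higher in granulosa. DPT, dermatopontin, a binder of decorin, gave 2.6 and 52.5 in granulosa and 2718 and 1486 in theca (-5.83 ± 0.56, 56.8-fold, adjusted p = 4.28e-05). OGN, osteoglycin, gave 12.1 and 20.2 in granulosa and 1228 and 1679 in theca (-5.51 ± 0.54, adjusted p = 4.28e-05). BGN, biglycan, gave 17.3 and 37.5 in granulosa and 683 and 293 in theca (-3.46 ± 0.42, adjusted p = 0.00025). DCN, decorin, gave 405 and 439 in granulosa and 3376 and 6044 in theca (-3.37 ± 0.47, adjusted p = 0.000678). The 4 calls held without any 1 array. HAPLN3, a link protein of hyaluronan, was the member higher in granulosa (1.61 ± 0.40, adjusted p = 0.0251). HAPLN3 lost its call with any 1 array but granulosa replicate 1 left out (adjusted p up to 0.202).

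Elastic fibre genes had 8 (5, 5, 5 and 6) of 14 tested members higher in theca and a median of -1.83, with no call in the other direction. FBLN5, fibulin, which is needed to assemble elastin, gave 21.2 and 24.5 in granulosa and 1199 and 922 in theca (-4.78 ± 0.38, 27.5-fold, adjusted p = 1.79e-05). EMILIN1 gave 8.6 and 43 in granulosa and 696 and 343 in theca (-3.73 ± 0.55, adjusted p = 0.00105). EFEMP2, another fibulin, gave 27.2 and 51 in granulosa and 710 and 331 in theca (-3.22 ± 0.40, adjusted p = 0.000278). MGP, the matrix Gla protein that keeps soft tissue from calcifying, gave 89.8 and 200 in granulosa and 9722 and 7760 in theca (-5.85 ± 0.82, 57.6-fold, adjusted p = 0.00064). Its other 2 tested probe sets gave -0.30 to -0.01 and so did not show the difference. Elsewhere in the matrix, SPARCL1 was higher in theca, with 2038 and 4859 against 52.7 and 69.8 in granulosa (-5.37 ± 0.52, 41.2-fold, adjusted p = 4.28e-05). SPP1, osteopontin, was higher in granulosa, with 884 and 370 against 14.4 and 96.4 in theca (3.33 ± 0.72, adjusted p = 0.0121). FN1, fibronectin, gave 548 and 850 in granulosa and 2158 and 2333 in theca without a call (-1.69 ± 0.67, adjusted p = 0.129). Of 12 tested genes of that last list 1 (0, 1, 0 and 1) was higher in granulosa and 1 (1, 1, 1 and 1) in theca. SPP1 lost its call with granulosa replicate 1 or theca replicate 1 left out (adjusted p up to 0.119).

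Called matrix proteases were on the theca side, with 6 (4, 2, 3 and 6) of 28 tested proteases and inhibitors called there with a median of 0.09 (0.04, -0.02, 0.03 and 0.01). ADAMDEC1, a disintegrin protease, gave 12.8 and 1.1 in granulosa and 600 and 830 in theca (-5.02 ± 0.38, adjusted p = 1.09e-05), and -2.40 in its other probe set. ADAMTS4, a protease that cleaves aggrecan and related proteoglycans, gave 1.8 and 2.3 in granulosa and 255 and 101 in theca (-3.30 ± 0.54, adjusted p = 0.00221). Both calls held without any 1 array. MMP2, a gelatinase, was also higher in theca (-2.20 ± 0.62, adjusted p = 0.0408). MMP2 lost its call with any 1 of the 4 arrays left out (adjusted p up to 0.187).

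**Figure D4:**
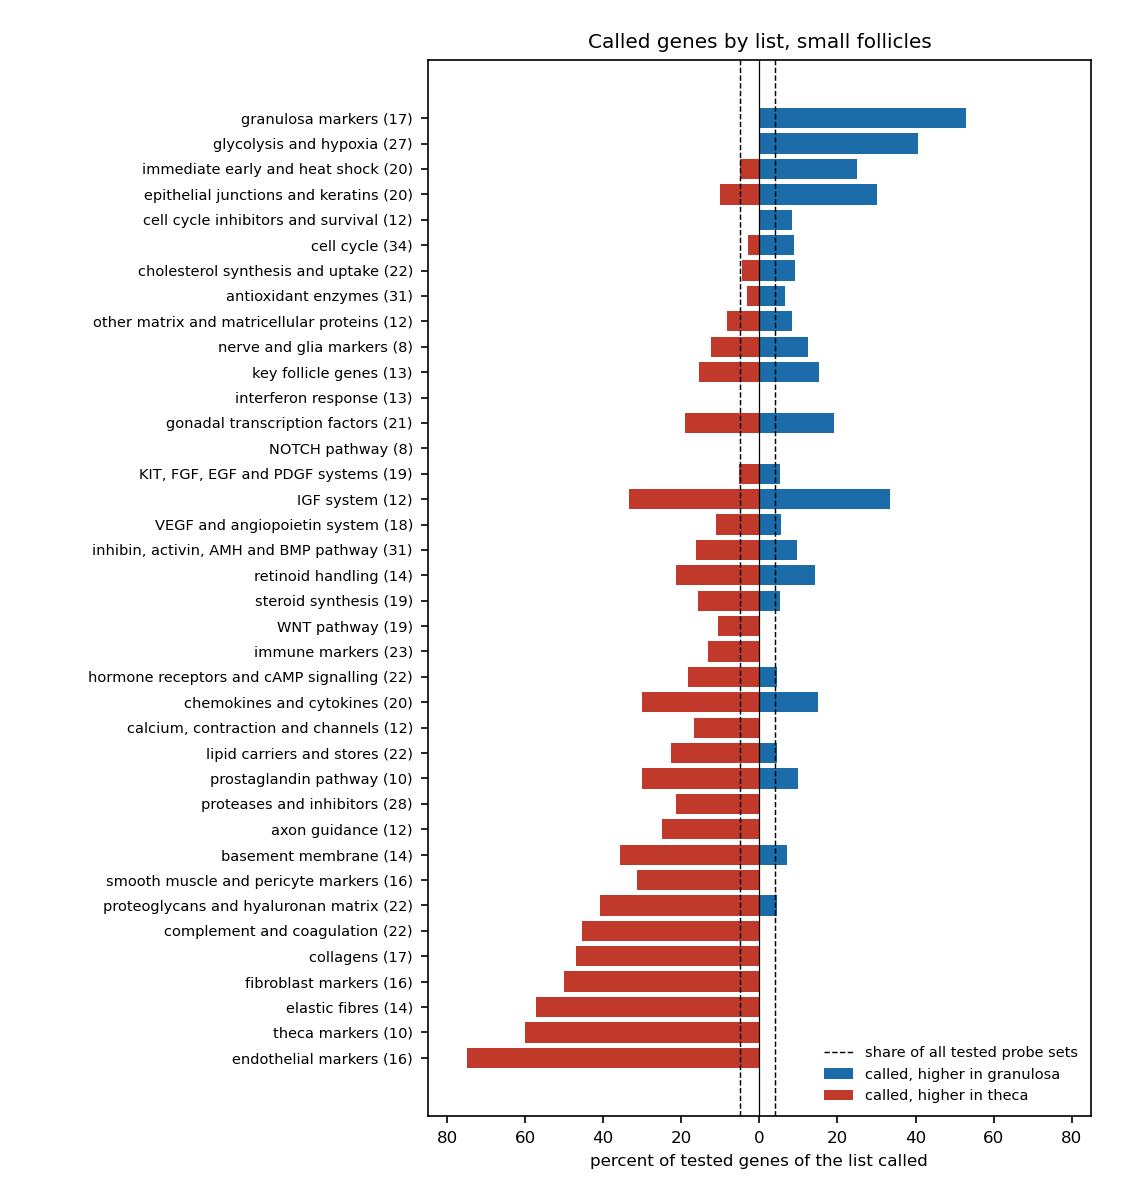
Bars give the percent of each list's tested genes that were called higher in granulosa (blue, to the right) or higher in theca (red, to the left) in small follicles, with the number tested in brackets, for the lists with at least 8 tested genes; dashed lines mark the shares over all tested probe sets, 4.06% and 5.08%. Granulosa markers and glycolysis genes stand out to the right and endothelial, theca, elastic fibre and fibroblast genes to the left.

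Called markers of vessels, muscle and fibroblasts were higher on the theca arrays too. Of 16 tested endothelial markers 12 (10, 8, 9 and 14) were called higher in theca, with a median of -2.30. Their summed signal was 376 and 445 in granulosa and 3036 and 2209 in theca. EMCN, endomucin, gave 16.1 and 2.6 in granulosa and 242 and 348 in theca (-3.65 ± 0.50, adjusted p = 0.000593). ROBO4 gave 0.9 and 3.8 in granulosa and 253 and 90.6 in theca (-3.21 ± 0.50, adjusted p = 0.00152). AQP1, a water channel, gave 13.2 and 12.7 in granulosa and 221 and 257 in theca (-3.14 ± 0.38, adjusted p = 0.000245). On the granulosa arrays these 3 genes stayed between 0.9 and 16.1. The transcription factors ERG (-2.49 ± 0.33, adjusted p = 0.000417) and SOX18 (-2.67 ± 0.36, adjusted p = 0.000456) of the same cells were likewise near the dim end in granulosa. These 5 calls held without any 1 array.

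Of 16 tested smooth muscle and pericyte markers 5 (3, 3, 3 and 5) were called higher in theca, with a median of -0.87 and summed signals of 8445 and 8267 in granulosa and 24233 and 17713 in theca. The other 11 gave no call, and 3 of the 16 estimates lay above 0. RGS5, a marker of pericytes, gave 11.2 and 11.9 in granulosa and 266 and 322 in theca (-3.49 ± 0.32, adjusted p = 3.67e-05). ACTA2, smooth muscle actin, gave 343 and 394 in granulosa and 4981 and 4244 in theca (-3.59 ± 0.60, 12-fold, adjusted p = 0.00257). MYLK, the kinase that starts smooth muscle contraction, gave 304 and 206 in granulosa and 3084 and 2565 in theca (-3.41 ± 0.42, adjusted p = 0.000245). Each held its call without any 1 array. LMOD1, leiomodin, was also higher in theca (-2.30 ± 0.65, adjusted p = 0.0411). PLN, phospholamban, a regulator of the calcium pump in muscle, was higher in theca, with 75.8 and 170 against 15.4 and 11.7 in granulosa (-2.15 ± 0.36, adjusted p = 0.00265), and 2 (1, 1, 1 and 1) of 12 genes of calcium handling and contraction were called on that side. LMOD1 lost its call with any 1 array but theca replicate 2 left out (adjusted p up to 0.288).

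All 16 tested fibroblast markers had an estimate below 0, 8 (6, 6, 7 and 7) of them were called higher in theca, and their median was -2.14. Their sums were 12974 and 17708 in granulosa against 37625 and 44512 in theca. COL1A1, COL3A1, DCN, DPT, OGN and TCF21 of this list were also counted in lists above, so the lists are not separate evidence. PDGFRA, a receptor of fibroblasts, gave no call at 320 and 305 in granulosa and 758 and 528 in theca (-0.98 ± 0.57, adjusted p = 0.3). Of 5 tested lymphatic markers 2 (2, 1, 3 and 2) were called, with CCL21, a chemokine of lymphatic vessels, at 0.7 and 4.9 in granulosa and 89.4 and 130 in theca (-2.73 ± 0.41, adjusted p = 0.00108). MMRN1, another marker of these vessels, gave 9.4 and 3.5 in granulosa and 44.8 and 218 in theca (-2.42 ± 0.51, adjusted p = 0.0101). The other 3 lymphatic markers gave no call, and 2 of the 5 estimates lay above 0. The part of the vessels, muscle and fibroblasts in the theca-side differences of other genes was not tested. MMRN1 lost its call with granulosa replicate 2 left out (adjusted p 0.0976).

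In small follicles the summed immune transcripts were dimmer on the granulosa arrays than on the theca arrays. The 25 immune markers with a probe set summed to 963 and 1135 in granulosa and to 2855 and 2456 in theca, and 3 (0, 0, 0 and 1) of 23 tested were called higher in theca with a median of -0.98. The called ones were the complement components C1QA (75.2 and 95.6 in granulosa and 526 and 419 in theca; -2.27 ± 0.51, adjusted p = 0.0156), C1QB (-2.21 ± 0.57, adjusted p = 0.0269) and C1QC (-2.13 ± 0.62, adjusted p = 0.0451), which macrophages make. PTPRC, the antigen CD45 of all leukocytes, gave 25.6 and 3.8 in granulosa and 65.2 and 93.7 in theca (-1.72 ± 0.57, adjusted p = 0.074). MHC class II genes, which present antigen, had all 7 estimates below 0 and 4 (0, 1, 1 and 4) called higher in theca. BOLA-DRA, the bovine DR alpha chain, gave 95.4 and 105 in granulosa and 552 and 635 in theca (-2.39 ± 0.48, adjusted p = 0.00805). Cross-hybridisation between related class II copies was not tested. C1QA lost its call with any 1 array but theca replicate 2 left out (adjusted p up to 0.0941). C1QB and C1QC lost their calls with any 1 of the 4 arrays left out (adjusted p up to 0.171 and 0.175). BOLA-DRA lost its call with granulosa replicate 1 or granulosa replicate 2 left out (adjusted p up to 0.057).

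Complement and coagulation genes had 10 (7, 8, 7 and 10) of 22 tested members higher in theca, with a median of -0.76. C7, a part of the membrane attack complex, gave 1.1 and 11.3 in granulosa and 346 and 412 in theca (-4.19 ± 0.43, adjusted p = 6.11e-05). C4A gave 192 and 129 in granulosa and 2236 and 1199 in theca (-3.25 ± 0.45, 9.51-fold, adjusted p = 0.000598). A2M, a broad protease inhibitor of plasma, gave 122 and 103 in granulosa and 1320 and 1430 in theca (-3.44 ± 0.46, adjusted p = 0.000456). The calls of C7, C4A and A2M held without any 1 array.

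Chemokines, cytokines and their receptors were called in both directions, 3 (1, 0, 0 and 2) of 20 higher in granulosa and 6 (5, 4, 5 and 5) higher in theca with a median of -0.36 (-0.72, -0.30, -0.75 and -0.39). CXCL14 gave 2.6 and 33.3 in granulosa and 577 and 1121 in theca (-4.76 ± 0.48, 27.1-fold, adjusted p = 4.97e-05). CCL14 gave 11.6 and 24.1 in granulosa and 404 and 316 in theca (-3.49 ± 0.40, adjusted p = 0.000156). CCL5, a chemokine that attracts T cells, gave 2.4 and 2.9 in granulosa and 129 and 84 in theca (-2.69 ± 0.44, adjusted p = 0.00201). On the other side the probe set annotated as XCL1 had 3449 and 4591 in granulosa and 43.2 and 496 in theca (4.52 ± 1.26, 23-fold, adjusted p = 0.0393). Its theca replicates lay 11.5 times apart. TNFRSF12A, the receptor of the cytokine TWEAK, was higher in granulosa (2.71 ± 0.51, adjusted p = 0.00546). Of 13 tested interferon-response genes limma called 0, with an unadjusted p under 0.05 for 4, and their median was -0.34 (-0.12, -0.66, -0.34 and -0.54). XCL1 lost its call with any 1 array but theca replicate 2 left out (adjusted p up to 0.255). TNFRSF12A lost its call with granulosa replicate 2 or theca replicate 1 left out (adjusted p up to 0.0679).

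With all arrays, glycolysis and hypoxia formed the list with the most calls on the granulosa side by count. By share, granulosa markers stood higher, with 9 of 17 called. Of 27 tested glycolysis and hypoxia genes 11 (5, 2, 2 and 11) were called higher in granulosa, 23 had an estimate above 0, and the median was 0.97. The glucose transporter SLC2A3 gave 113 and 102 in granulosa and 3 and 19.3 in theca (2.25 ± 0.38, adjusted p = 0.00242). SLC2A1, the basal glucose transporter, gave 839 and 1109 in granulosa and 82.3 and 188 in theca (2.79 ± 0.58, 6.93-fold, adjusted p = 0.00991). PFKFB3, which sets the rate of glycolysis, gave 281 and 241 in granulosa and 47.6 and 78.4 in theca (1.83 ± 0.36, adjusted p = 0.00723). SLC2A3 was called without any 1 array. ENO1, enolase, gave 5507 and 8538 in granulosa and 3907 and 3754 in theca (0.84 ± 0.32, adjusted p = 0.113). GAPDH gave 6325 and 9052 in granulosa and 3238 and 4656 in theca (0.96 ± 0.33, adjusted p = 0.0831). Neither ENO1 nor GAPDH was called. LDHB, the lactate dehydrogenase chain of oxidative tissue, was brighter in theca, with 6961 and 6101 against 4400 and 5166 in granulosa without a call (-0.45 ± 0.29, adjusted p = 0.357). GAPDH is also the transcript whose 3' over 5' ratio set theca replicate 1 apart. SLC2A1 lost its call with granulosa replicate 2 or theca replicate 1 left out (adjusted p up to 0.0955). PFKFB3 lost its call with granulosa replicate 1 or theca replicate 1 left out (adjusted p up to 0.0648).

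Called lipid genes were mostly on the theca side, with 5 (4, 4, 5 and 5) of 22 tested lipid carrier genes called there and 1 (1, 0, 0 and 1) higher in granulosa with a median of -0.42 (-0.13, -0.56, -0.22 and -0.74). Of all tested probe sets 5.08% were called higher in theca and 4.06% higher in granulosa. LPL, lipoprotein lipase, gave 50.2 and 43.8 in granulosa and 1059 and 856 in theca (-3.94 ± 0.37, 15.4-fold, adjusted p = 3.74e-05). CAV1, caveolin, gave 18.6 and 15.3 in granulosa and 306 and 712 in theca (-3.88 ± 0.42, adjusted p = 9.7e-05). APOD, an apolipoprotein of theca, gave 990 and 514 in granulosa and 9015 and 6461 in theca (-3.39 ± 0.39, adjusted p = 0.00017). ACSL5, which activates fatty acids, gave 29.2 and 41.6 in granulosa and 293 and 210 in theca (-2.37 ± 0.40, adjusted p = 0.00277), and all 4 calls held without any 1 array. SCD, the desaturase, was higher in granulosa, with 1008 and 1740 against 389 and 433 in theca (1.65 ± 0.43, adjusted p = 0.0279). SCD lost its call with granulosa replicate 2 or theca replicate 1 left out (adjusted p up to 0.227).

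Of 22 tested cholesterol genes 2 (1, 0, 0 and 3) were higher in granulosa and 1 (0, 0, 0 and 4) higher in theca, with a median of -0.16 (0.09, -0.37, 0.51 and -0.71). Over all tested probe sets the shares called were 4.06% and 5.08%. The theca replicates differed here, with a median of replicate 1 minus replicate 2 of 1.05 on the log2 scale over the list, against -0.02 over all tested probe sets. SCAP, an escort protein that senses sterols, gave 176 and 205 in granulosa and 33.1 and 65.1 in theca (1.71 ± 0.33, adjusted p = 0.00601). NPC1, which releases cholesterol from lysosomes, gave 459 and 433 in granulosa and 148 and 165 in theca (1.42 ± 0.30, adjusted p = 0.0102). The synthesis enzyme CYP51A1 gave 136 and 113 in granulosa and 648 and 205 in theca (-1.45 ± 0.43, adjusted p = 0.0481), higher on theca replicate 1 than on replicate 2. SCARB1, the receptor that takes up cholesterol from lipoproteins, gave 524 and 892 in granulosa and 2350 and 1137 in theca (-1.24 ± 0.43, adjusted p = 0.0895). SCAP lost its call with granulosa replicate 2 or theca replicate 1 left out (adjusted p up to 0.0594). NPC1 and CYP51A1 lost their calls with any 1 array but theca replicate 2 left out (adjusted p up to 0.0582 and 0.309).

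Immediate early genes respond within minutes to a stimulus or to handling of tissue. Together with heat shock genes they had 5 (2, 3, 2 and 6) of 20 tested members higher in granulosa and 1 (1, 0, 0 and 1) higher in theca, with a median of 0.85. ZFP36, which destabilises cytokine messages, gave 588 and 578 in granulosa and 67.9 and 118 in theca (2.50 ± 0.38, 5.64-fold, adjusted p = 0.00138). ATF3, a stress-induced factor, gave 279 and 150 in granulosa and 25.9 and 41.2 in theca (2.18 ± 0.38, adjusted p = 0.00348). EGR1 gave 2979 and 1879 in granulosa and 845 and 779 in theca (1.53 ± 0.35, adjusted p = 0.0173). JUN gave 2042 and 1681 in granulosa and 574 and 816 in theca (1.42 ± 0.38, adjusted p = 0.0324), with -0.02 to 3.12 over the other probe sets of JUN. ZFP36 and ATF3 were called without any 1 array. MYC gave 2853 and 2563 in granulosa and 440 and 1849 in theca (1.56 ± 0.49, adjusted p = 0.0614). DUSP1, a phosphatase of the MAP kinases, gave 1156 and 939 in granulosa and 273 and 534 in theca (1.41 ± 0.42, adjusted p = 0.0521). Neither MYC nor DUSP1 was called. KLF4 was the member higher in theca (-1.53 ± 0.38, adjusted p = 0.0226). EGR1 lost its call with granulosa replicate 1 or theca replicate 1 left out (adjusted p up to 0.113). JUN lost its call with any 1 array but theca replicate 2 left out (adjusted p up to 0.167). KLF4 lost its call with granulosa replicate 2 or theca replicate 1 left out (adjusted p up to 0.221).

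Cell cycle genes had an estimate above 0 for 28 of 34 tested and a median of 0.49 (0.83, 0.24, 0.35 and 0.87), with few calls, 3 (4, 0, 0 and 8) higher in granulosa and 1 (0, 0, 0 and 1) higher in theca. The shares of all tested probe sets called in these directions were 4.06% and 5.08%. Over the list the median of theca replicate 1 minus replicate 2 was -0.68, against -0.02 over all tested probe sets. CCND2, the D cyclin that follicle-stimulating hormone induces in granulosa cells, gave 1784 and 2516 in granulosa and 793 and 704 in theca (1.48 ± 0.39, adjusted p = 0.0318). CCND3, another D cyclin, lay on the theca side at 178 and 215 in granulosa and 723 and 511 in theca (-1.56 ± 0.37, adjusted p = 0.0201). The layers did not overlap for either cyclin, as for every called probe set. UBE2C, which tags mitotic proteins for destruction, gave 1.77 ± 0.49 (adjusted p = 0.0389). PLK1, a kinase of mitosis, gave 1.43 ± 0.39 (adjusted p = 0.0362). RPRM, reprimo, which halts the cycle before mitosis, was higher in granulosa, with 540 and 438 against 45.7 and 111 in theca (2.50 ± 0.41, 5.68-fold, adjusted p = 0.00224), the called member of 12 tested inhibitors and survival genes, and its call held without any 1 array. CCND2 lost its call with any 1 of the 4 arrays left out (adjusted p up to 0.216). CCND3 lost its call with any 1 array but theca replicate 2 left out (adjusted p up to 0.122). UBE2C and PLK1 lost their calls with granulosa replicate 2 or theca replicate 1 left out (adjusted p up to 0.343 and 0.306).

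Among 31 tested antioxidant genes 2 (0, 0, 0 and 5) were higher in granulosa and 1 (0, 1, 0 and 1) higher in theca, near the shares of 4.06% and 5.08% over all tested probe sets. Their median was 0.37 (0.36, 0.24, 0.16 and 0.41). GPX3, a secreted glutathione peroxidase, gave 841 and 1590 in granulosa and 50.7 and 395 in theca (2.82 ± 0.74, adjusted p = 0.0294). GCLC, which starts glutathione synthesis, gave 350 and 339 in granulosa and 2.2 and 134 in theca (2.79 ± 0.76, adjusted p = 0.035). GSTM3, a glutathione transferase, gave 1060 and 1950 in granulosa and 8785 and 4372 in theca (-2.09 ± 0.49, adjusted p = 0.0177). The theca replicates of GPX3 and GCLC lay far apart. In axon guidance, 3 (2, 1, 1 and 2) of 12 tested genes were higher in theca, among them the ligand SLIT3 (-1.84 ± 0.35, adjusted p = 0.00601) and its receptor ROBO1 (-1.67 ± 0.45, adjusted p = 0.0339). S100B, a protein of glia, was higher in theca (-2.02 ± 0.36, adjusted p = 0.00376). UCHL1, a ubiquitin hydrolase of neurons, was higher in granulosa, with 4821 and 6033 against 1215 and 1194 in theca (2.15 ± 0.44, adjusted p = 0.00887). These were the called members of 8 tested nerve and glia markers. Of the 3 tested markers of red blood cells and the 5 of oocytes limma called 0 each, with an unadjusted p under 0.05 for 0 and 2 of them, and the highest signal of a tested marker on the 4 arrays was 42.3 and 49.5. GPX3 and GCLC lost their calls with any 1 array but theca replicate 2 left out (adjusted p up to 0.229 and 0.255). GSTM3 lost its call with granulosa replicate 1 or theca replicate 1 left out (adjusted p up to 0.137). SLIT3 lost its call with theca replicate 1 left out (adjusted p 0.0504). ROBO1 lost its call with any 1 array but theca replicate 1 left out (adjusted p up to 0.161). UCHL1 lost its call with granulosa replicate 2 or theca replicate 1 left out (adjusted p up to 0.088).

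The 12 largest granulosa-side differences held several genes not yet described. SGK1, a kinase that hormones induce, gave 880 and 832 in granulosa and 25.3 and 118 in theca (3.55 ± 0.79, adjusted p = 0.0143). ANKRD1, a target of mechanical signals, gave 1410 and 720 in granulosa and 39.8 and 166 in theca (3.35 ± 0.88, adjusted p = 0.031). SLC17A5, a sialic acid transporter, gave 3036 and 2765 in granulosa and 117 and 609 in theca (3.34 ± 0.75, adjusted p = 0.0149). ITGAV, an integrin subunit, gave 1331 and 808 in granulosa and 4.2 and 357 in theca (3.60 ± 1.01, adjusted p = 0.0401). MAP1LC3C, an autophagy protein, gave 458 and 554 in granulosa and 8.4 and 55.9 in theca (3.63 ± 0.98, adjusted p = 0.0343). The gene LOC514170 gave 699 and 1270 in granulosa and 30.3 and 120 in theca (3.60 ± 0.75, adjusted p = 0.0101). In all 6 theca replicate 1 was the lowest array. Without theca replicate 1 their adjusted p ran from 0.102 to 0.291. GNG11, a G protein subunit, was the gene of the 12 largest theca-side differences not yet given, at 17.3 and 31.6 in granulosa and 1694 and 936 in theca (-5.0 ± 0.53, 32.1-fold, adjusted p = 7.29e-05), and its call held without any 1 array. SGK1, ANKRD1, SLC17A5, ITGAV and MAP1LC3C lost their calls with any 1 array but theca replicate 2 left out (adjusted p up to 0.127, 0.201, 0.139, 0.291 and 0.201). LOC514170 lost its call with granulosa replicate 2 or theca replicate 1 left out (adjusted p up to 0.11).

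The layer difference of small follicles was then set against that of medium and large follicles, which rest on other arrays. The sets were chosen by their small-follicle values, so the small-follicle medians are not set beside the others. Over all tested probe sets the sign was the same as in small follicles for 74.8% in medium and 66.4% in large follicles. Of the 700 probe sets higher in granulosa, 682 had the same direction in medium and 643 in large follicles, with median differences of 0.98 and 0.70. The calls shared were 173 with medium follicles, of 308 called there, and 77 with large follicles, of 348. Of the 875 higher in theca, 864 and 767 had the same direction, with medians of -1.71 and -0.98. Shared calls were 538 of 726 in medium and 275 of 412 in large follicles. The 3 comparisons share 1 estimate of the spread.

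No probe set of 17236 (0%) passed the test of the difference itself, small against the mean of medium and large, by limma, and 1115 had an unadjusted p under 0.05. Against medium follicles alone the count was also 0 (0%), with 433 under 0.05 unadjusted. Without theca replicate 2, the test against the mean of both sizes called 63 probe sets. Against large follicles alone, a contrast added after the data had been seen, 2 probe sets (0.0116%) were called, and 1820 had an unadjusted p under 0.05. One was CCL5, with a layer difference of -2.69 ± 0.44 in small follicles, -1.14 ± 0.44 in medium and 2.09 ± 0.44 in large follicles. The other was UCP2, an uncoupling protein of mitochondria, with -2.35 ± 0.37 in small follicles, -2.48 ± 0.37 in medium and 1.44 ± 0.37 in large follicles. Neither call held with log2(signal + 1), log2(signal + 64), quantile normalization, array weights or no filter on low values. Both genes lost the call with granulosa replicate 1, granulosa replicate 2 or theca replicate 1 of the small follicles left out, with adjusted p from 0.0918 to 0.448.

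**Figure D5:**
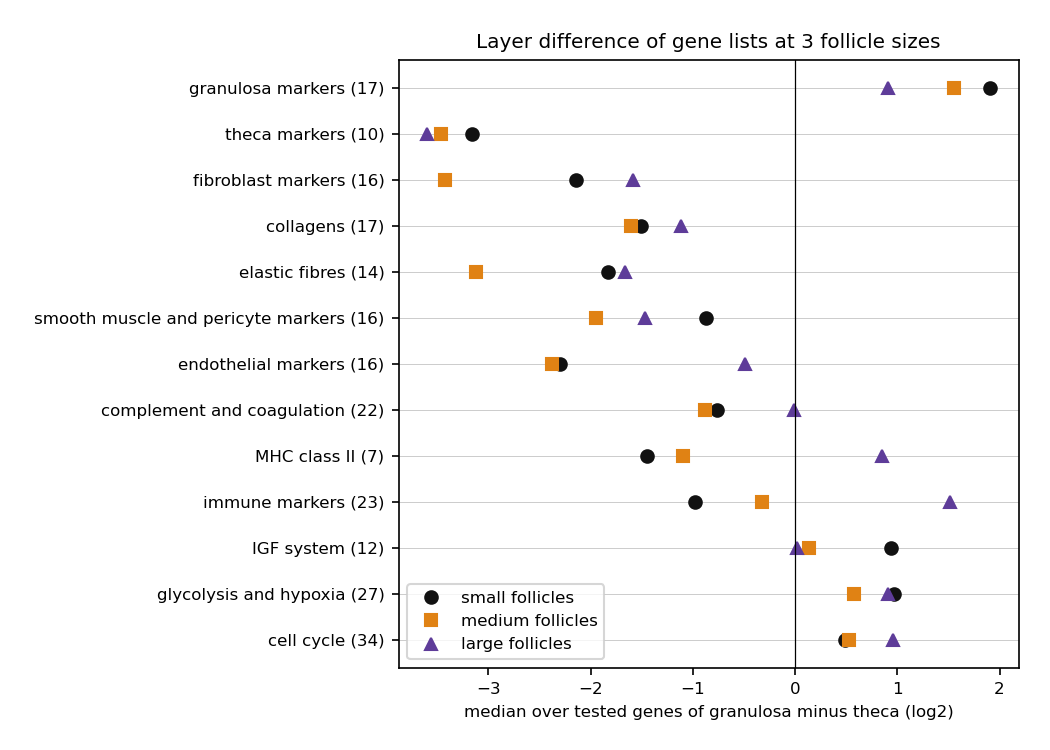
Points give the median granulosa minus theca difference (log2) over the tested genes of a list, whose number is in brackets, in small (circles), medium (squares) and large follicles (triangles). The medians of theca markers lie between -3.16 and -3.60, while those of immune markers run from -0.98 in small to 1.52 in large follicles.

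Some lists had different medians by size. With sizes in ascending order, endothelial markers stood at -2.30, -2.38 and -0.49, immune markers at -0.98, -0.32 and 1.52, and MHC class II genes at -1.45, -1.10 and 0.85. The summed immune signal was 21892 and 8783 on the large granulosa arrays, against 963 to 2455 on the other granulosa arrays and 1948 to 5259 on the theca arrays. The part of these 2 arrays in the size differences was not tested. Granulosa markers had medians of 1.91, 1.55 and 0.91, and theca markers of -3.16, -3.46 and -3.60. Among single genes, chosen here after their values were seen, INHBA had a layer difference of 2.78 ± 0.50 in small follicles, 1.83 ± 0.50 in medium and 0.03 ± 0.50 in large follicles (difference of the differences 1.85 ± 0.61, adjusted p = 0.719). STC1 stood at 2.47 ± 0.42 in small follicles, 0.11 ± 0.42 in medium and -0.62 ± 0.42 in large follicles (2.72 ± 0.51, adjusted p = 0.674). PTGES gave 1.71 ± 0.41 in small follicles, -1.0 ± 0.41 in medium and 0.07 ± 0.41 in large follicles (2.17 ± 0.50, adjusted p = 0.674). None of the 3 size differences passed the test.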

How the data were processed

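Biotin-labelled total RNA was hybridised to Affymetrix bovine arrays, per the labels. The deposited value of each probe set is a signal intensity on a linear scale, with the authors' software and scaling not stated in any label or header. After leaving out 2% of values at each end, the mean intensity was 125.03 to 125.04 on every array. The table held 24128 probe sets, of which 112 controls were left out. Platform annotation named 13292 of the other 24016 by 1 gene symbol, 86 by several and 10638 by none.

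A probe set was tested if a group's mean log2(signal + 16) exceeded the 40th percentile over the whole table (signal 22.5). limma 3.58.1 in R 4.3.3 was fitted to 6 group means over 12 arrays, with 6 residual degrees of freedom and 7.92 prior ones. The fit was tested on simulated data. A permutation of 2 arrays against 2 cannot give an exact two-sided p below 0.333. Each sample is described as a pool, and replicates were treated as separate pools. The p-values rest on a spread between replicate arrays, per probe set, that the 6 groups share, not on the small-follicle arrays alone. Between replicates the median absolute log2 difference was 0.451 in small theca, 0.366 in small granulosa and 0.247 to 0.416 in the other groups. The shared spread can thus be too small for small theca. The number of arrays limits the precision. Summaries and plots used Python 3.11.15, pandas 2.3.3 and matplotlib 3.10.9.

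Genes were named where called with arrays not overlapping: up to 4 per list and direction, and the 12 largest differences in each direction. The 13 key follicle genes and uncalled members of a described pathway were also named, and ERG, KRT8 and PFKFB3 were added after their values were seen. The members and the 43 lists, with 784 of 1073 entries on the array, were chosen with earlier results of these data known. The lists overlap, and the 784 entries stand for 714 distinct genes. Alternatives changed the pseudocount (1 or 64), the normalization, the filter, the variance model, array weights, the arrays in the fit, the probe sets of a gene and a replicate block. Sequences were not analysed here.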

Additional observations from a re-analysis of the deposited data

Results flagged for a closer look

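The contrast of small against large follicles, chosen after the data had been seen, gave 2 called genes. For CCL5 the small-follicle layer difference minus that of large follicles was -4.78 ± 0.62 on the log2 scale (limma adjusted p = 0.036), and the adjusted p ranged from 0.0115 to 0.397 over the alternatives. Its signals were 557 and 297 in granulosa and 90.3 and 77.2 in theca of large follicles, against 2.4 and 2.9 and 129 and 84 in small ones. For UCP2 the same quantity was -3.79 ± 0.53 (limma adjusted p = 0.0419), with a range from 0.0167 to 0.448. The size of both differences moved with the pseudocount, to -7.12 and -5.82 with log2(signal + 1) and to -3.02 and -2.15 with log2(signal + 64). Neither gene was called with either of these pseudocounts, quantile normalization, array weights or no filter on low values. The limma adjusted p in these fits ran from 0.0577 to 0.191. The signals of UCP2 were 214 and 94.7 in granulosa and 45.5 and 39.9 in theca of large follicles, against 1.7 and 10.2 and 105 and 83.3 in small ones. Without theca replicate 1 of the small and granulosa replicate 1 of the large follicles together, the adjusted p was 0.378 for both genes. The immune markers summed to 21892 and 8783 on the large granulosa arrays and to 963 and 1135 on the small ones. Large granulosa replicate 1 also had the highest actin 3' over 5' ratio, 21.0 against 2.39 to 11.2 on the other arrays, and a red blood cell marker sum of 668 against 24 to 94. The part of these values in the 2 results was not tested. With 2 arrays per group no array was tested for standing apart within its group.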

How the results depend on the processing

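The 1575 calls moved most with the arrays used. Leaving out 1 small-follicle array gave 501 to 2232 calls, 137 to 1271 higher in granulosa and 364 to 961 higher in theca. The lowest counts came without granulosa replicate 2 and the highest without theca replicate 2. Without theca replicate 1 of the small and granulosa replicate 1 of the large follicles together the count was 797 (274 and 523). Array weights gave 569 (165 and 404). They came out equal for the 2 replicates of each group, and lowest for small theca at 0.522. They thus weighted groups and not single arrays. The 4 small-follicle arrays alone gave 925 (352 and 573). With log2(signal + 1), 412 were higher in granulosa. The other alternatives, among them quantile normalization, median centring and both other filters, stayed within 1.5 times of the 3 counts. The main fit did not pair the samples by replicate number. Deviations of same-numbered granulosa and theca arrays correlated at -0.307 (small), -0.179 (medium) and 0.142 (large). With 1 replicate difference per layer and size, these values cannot show whether the pools shared animals. The fit with the replicate block gave 1240 calls (520 and 720). For the layer difference between sizes the count of 0 ran from 0 to 63 with 1 array left out and was 2 against large follicles alone. Of 146 called genes taken by the naming rule or added to it, 139 kept the call under quantile normalization, 145 under median centring, 104 with log2(signal + 1), 117 with log2(signal + 64), 90 with array weights and 81 to 130 with 1 array left out. The uncalled CYP11A1 (-0.05) was 0.02 under quantile normalization, -0.41 to 0.31 with 1 array left out and 0.31 without the pair of arrays. STAR (-0.02) was 0.06, -1.05 to 1.0 and 1.0 in the same order. The cause of these changes was not tested. Dim probe sets near the filter level limit the small differences that could be called.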
